A study of Mus musculus with 10 samples.

Results

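The peaks described here are those of trimethylated lysine 4 of histone H3 (H3K4me3) in neural stem and progenitor cells given crotonate, set against those of the same kind of cells given water. All H3K4me3 peaks on chromosomes 1 to 19 of both treatments were taken, 17377 in crotonate and 16714 in control. These 34091 regions are part of 273422 in the 8 peak lists of the series, which also cover H3K9cr (crotonylated lysine 9), H3K27ac and H3K27me3.

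The cells came from the forebrain of E13.5 mouse embryos, were grown with 20 ng/ml of EGF and 20 ng/ml of FGF, the growth factors that keep such cells dividing, and were used at an early passage. They were treated for 24 h with 10 mM crotonate, a fatty acid of short chain length from which crotonyl-CoA is made, or with water as the control. Chromatin was immunoprecipitated without crosslinking and sequenced, with 1 library per treatment. There was therefore no replicate check and no test between treatments, and each difference below compares these 2 libraries.

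The labels give the H3K4me3 antibody 1 catalogue number in both treatments but name the vendor as PTM Biolab in crotonate and Abcam in control, so any difference between antibodies and that between treatments cannot be told apart. Sequencing depth was unknown. Summit pileup and fold enrichment together imply a background pileup for each peak, whose lowest value was 2.87 in crotonate and 2.91 in control. The summits of crotonate peaks had a median pileup of 387 stacked fragments and a median fold enrichment of 94.4, against 438.5 fragments and 105.5 in control. Median signal at summits was thus somewhat lower in the crotonate library while more peaks were listed. The difference was not uniform. Among peaks paired between the lists, as described below, the 25th percentile of fold enrichment was 31.2 in crotonate and 26.6 in control. The 75th percentile was 157.2 in crotonate and 176.3 in control, so signal was lower at strong peaks and higher at weak ones. Values below are therefore compared as widths and as ranks within each list.

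H3K4me3 sits on nucleosomes around the start sites of genes and is placed by the Set1 and MLL methyltransferase complexes, many of which find unmethylated CpG islands through zinc finger proteins. The mark usually covers a few nucleosomes, and it extends over many kilobases at genes that set the identity of a cell. In stem and progenitor cells, start sites of silent developmental regulators often carry H3K4me3 together with H3K27me3, the mark of Polycomb complexes, a state called bivalent.

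As a check of the labelled cell type, 12 of 13 marker genes of neural stem and progenitor cells had an H3K4me3 peak in crotonate and 12 in control within the gene window, which is 1 kb either side of the annotated start, or of both annotated ends for genes with no start in the reference, with Msi1 lacking one in both. Of 7 neuron markers on these chromosomes, 6 had a peak in crotonate and 5 in control. In both treatments a peak was present at 1 of 4 astrocyte markers, 5 of 6 oligodendrocyte lineage markers, 1 of 7 markers of microglia and blood, 1 of 5 endothelial markers and 4 of 6 mesenchymal markers. The astrocyte genes Gfap and Aqp4 and the blood gene Ptprc had no peak in either treatment.

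Among the 7 widest H3K4me3 domains of each library, 3 lay on the genes of miR-9, a microRNA of neural progenitors, which is encoded at 3 loci. The mature sequences are shown because all 3 loci yield the same 2 microRNAs, from the 2 arms of the hairpin, with the seed (bases 2 to 8) in capitals. They are from RefSeq (GRCm38.p6), and at Mir9-1 they occupy chr3:88215613-88215635 and chr3:88215652-88215673 on the plus strand.
mmu-miR-9-5p: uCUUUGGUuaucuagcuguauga
mmu-miR-9-3p: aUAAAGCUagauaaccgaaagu
The peak over Mir9-2 was the widest of both lists, 28697 bp in crotonate and 28281 bp in control. Over Mir9-1, 1 crotonate peak of 22684 bp covered 2 control peaks, the wider of 17217 bp. Over Mir9-3, 1 crotonate peak of 20488 bp likewise covered 2 control peaks, of 15875 bp and 3598 bp. The miR-9 loci were named after their values had been seen, since the rule for named genes covered protein-coding genes.

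The promoters of 3 genes of cell division whose H3K4me3 rank fell, and of 1 developmental gene whose peak widened, are shown because the rank and width results below turn on these 2 kinds of gene. Each run is the 250 bases before the annotated start, from RefSeq (GRCm38.p6). In Bub1b (chr2:118597961-118598210, plus strand), Cdc20 (chr4:118437344-118437593, minus strand) and Mki67 (chr7:135716380-135716629, minus strand), capitals mark the letters CCAAT and TTTGAA on either strand, known as the CCAAT box and the cell cycle homology region. In Shox2 (chr3:66981772-66982021, minus strand), capitals mark CG.
Bub1b: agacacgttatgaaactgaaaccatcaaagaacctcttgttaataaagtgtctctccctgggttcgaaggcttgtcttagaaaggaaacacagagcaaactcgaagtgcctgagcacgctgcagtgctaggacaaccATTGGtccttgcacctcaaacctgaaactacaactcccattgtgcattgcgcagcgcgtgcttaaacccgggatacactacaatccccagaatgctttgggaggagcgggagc
Cdc20: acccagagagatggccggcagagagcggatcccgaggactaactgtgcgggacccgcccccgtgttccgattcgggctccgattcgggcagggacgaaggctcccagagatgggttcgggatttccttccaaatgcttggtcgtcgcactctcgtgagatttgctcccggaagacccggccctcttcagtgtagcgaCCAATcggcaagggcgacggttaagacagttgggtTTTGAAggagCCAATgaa
Mki67: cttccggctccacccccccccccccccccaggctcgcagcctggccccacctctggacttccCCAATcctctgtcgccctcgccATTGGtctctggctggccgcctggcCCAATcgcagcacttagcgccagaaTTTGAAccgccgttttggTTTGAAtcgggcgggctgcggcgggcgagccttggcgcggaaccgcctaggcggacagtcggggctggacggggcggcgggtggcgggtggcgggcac
Shox2: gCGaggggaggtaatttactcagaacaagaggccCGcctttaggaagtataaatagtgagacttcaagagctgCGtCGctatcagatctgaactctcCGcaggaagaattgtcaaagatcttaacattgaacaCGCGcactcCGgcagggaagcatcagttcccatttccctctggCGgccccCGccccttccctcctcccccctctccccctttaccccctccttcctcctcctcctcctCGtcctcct

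The question of peak structure was whether H3K4me3 peaks of the crotonate library covered the same stretches as those of the control library. They mostly did. A 1-to-1 pair, in which a peak overlapped a single peak of the other list by at least 1 bp and that peak overlapped no other, was found for 15888 peaks, which is 91.4% of the crotonate list and 95.1% of the control list. The smallest overlap of a pair was 41 bp, and the nearest peak without a partner lay 7 bp from the other list. The summit moved by 200 bp or less in 92.0% of pairs.

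Peaks without a partner numbered 1206 in crotonate (6.94% of its list, exact 95% interval 6.57 to 7.33%) and 470 in control (2.81%, 2.57 to 3.07%). They were narrow and weak in both lists, with a median width of 361 bp in crotonate and 346 bp in control and a median fold enrichment of 5.13 in crotonate and 4.85 in control. Of the crotonate ones, 73.4% were in the weakest 10% of their own list, against 82.1% of the control ones. The 2 sets differed in the chromatin they lay on. A control H3K27me3 peak overlapped 48.5% of the unpartnered crotonate peaks (45.7 to 51.4%) and 13.4% of the unpartnered control peaks (10.5 to 16.8%), against 28.7% of all control peaks. An H3K27ac peak of the same treatment overlapped 33.8% of the crotonate ones and 84.9% of the control ones. Over all peaks these H3K27ac shares were 84.2% in crotonate and 88.2% in control, so the unpartnered control peaks were close to their list.

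Splits and merges were rare. A peak of the control list overlapped 2 or more crotonate peaks in 73 cases (0.437% of control peaks), and a crotonate peak overlapped 2 or more control peaks in 140 cases (0.806% of crotonate peaks). The pieces lay close together, with a median gap of 379 bp for the crotonate peaks that joined control peaks and of 279 bp for the control peaks that came apart. For the merged crotonate peaks the weaker control piece was usually faint, with a median -log10 q of 15.6, against 57.4 for the weakest crotonate piece of split peaks. When peaks closer than 500 bp were first joined within each list, 84 merges and 13 splits were counted. The gap held an annotated start in 9 of the merges and 6 of the splits. It lay within 500 bp of one in at most 46 of the merges and 38 of the splits. These 2 upper counts include gaps on chromosome 18, where the reference gave no starts.

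H3K27me3 lay on merged crotonate peaks more often than on split control peaks. Crotonate H3K27me3 peaks touched 66 of the 140 merged crotonate peaks (47.1%, 38.7 to 55.8%), against 24.8% of all crotonate peaks. Control H3K27me3 peaks touched 12 of the 73 split control peaks (16.4%, 8.79 to 26.95%), against 28.7% of all control peaks. H3K27ac touched 85.7% of the merged and 98.6% of the split peaks, against 84.2% of all crotonate and 88.2% of all control peaks.

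Of the split control peaks at genes, those with the greatest -log10 q were at Tubb2b, a beta-tubulin of neurons and progenitors, Rab8a, a small GTPase of vesicle transport, Uspl1, a SUMO protease, Jun, a subunit of the AP-1 transcription factor, and Napa, which recycles membrane fusion complexes. At Tubb2b, 2 crotonate peaks of 6324 and 1991 bp stood against 1 control peak of 9091 bp (chr13:34125449-34134539). At Jun, crotonate had peaks of 3878 and 1811 bp on the 2 sides of a gap of 270 bp that begins 3 bp upstream of the annotated start, against 1 control peak of 5660 bp (chr4:95048743-95054402). The summit pileup of the stronger crotonate piece at Jun was 800, against 1000 for the control peak.

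A similar gap was seen at Pou3f3, a transcription factor of the developing brain whose control peak was among the widest. Crotonate had peaks of 12046 bp (chr1:42683399-42695444) and 18892 bp (chr1:42695696-42714587), separated by 251 bp that end 73 bp upstream of the annotated start at 42695768. Control had 1 peak of 22396 bp across this gap (chr1:42683608-42706003) and a second of 1483 bp farther downstream. A further control peak lay beyond that second one. The crotonate peak of 18892 bp thus overlapped 3 control peaks, and the widest gap between them was 797 bp. At Cdkn1b, which encodes the cell cycle inhibitor p27 and was named after its values had been seen, crotonate had 3 peaks of 5346, 855 and 4210 bp where control had 1 of 11148 bp (chr6:134919446-134930593).

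Of the merged crotonate peaks at genes, those with the greatest -log10 q were at Dusp6, a phosphatase that switches off ERK, Lrig1, a negative regulator of epidermal growth factor receptors, Sox8, a transcription factor of glia and neural crest, the divergent pair Safb and Safb2, nuclear RNA-binding proteins, and Dusp1, another MAP kinase phosphatase. At Dusp6, 1 crotonate peak of 8045 bp (chr10:99260900-99268944) stood against control peaks of 6807 and 322 bp, the second with a fold enrichment of 3.58. At Dusp1, 1 crotonate peak of 6070 bp (chr17:26503372-26509441) stood against control peaks of 3118 and 961 bp with 1780 bp between them, the widest gap bridged. At Sox8, 1 crotonate peak of 6620 bp stood against control peaks of 5823 and 548 bp. At Cdkn1a, which encodes the cell cycle inhibitor p21 and was likewise named after its values had been seen, 1 crotonate peak of 5731 bp stood against control peaks of 3369 and 1371 bp.

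**Figure D1:**
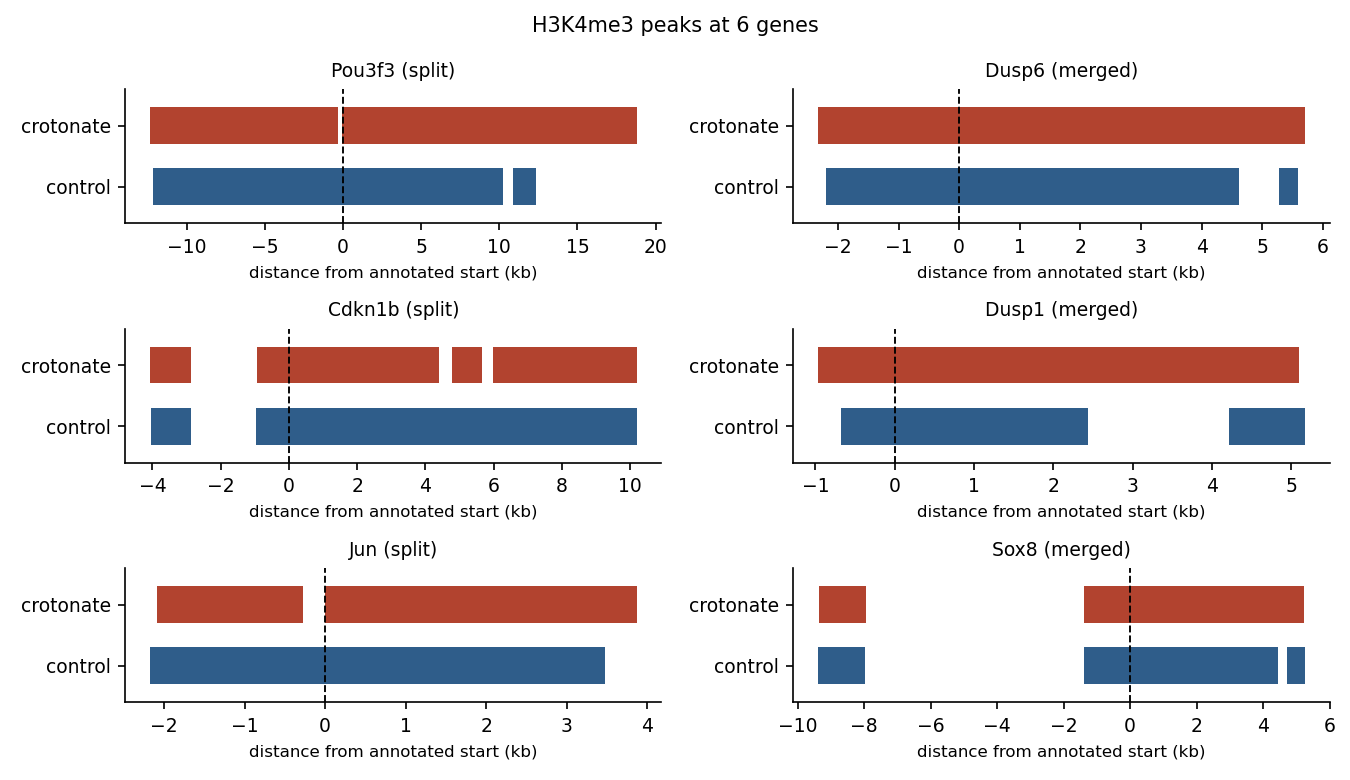
H3K4me3 peaks at 6 genes, drawn as bars over the distance from the annotated start in kb, in the direction of transcription, with crotonate above control. The control peaks at Pou3f3, Cdkn1b and Jun are interrupted in crotonate. A further control peak at Pou3f3 is not drawn. The gaps between control peaks at Dusp6, Dusp1 and Sox8 are bridged in crotonate, with 1780 bp bridged at Dusp1.

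Crotonate peaks were slightly wider than their control partners across most of the list. The median width over the 15888 pairs was 1527 bp in crotonate and 1465 bp in control, with a median difference of 48 bp and a median ratio of 1.03. The ratio lay between 0.865 and 1.45 in the central 90% of pairs. The crotonate peak was the wider one, by any amount, in 10641 pairs (67.0%, 66.2 to 67.7%). The difference of 48 bp is less than the DNA of a single nucleosome.

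Large width changes were few and mostly gains. Crotonate width was at least 1.5 times control width in 672 pairs (4.23%), here called widened, and at most 1/1.5 of it in 173 pairs (1.09%), called narrowed. The widened pairs were narrow peaks in both treatments, with a median width of 878.5 bp in crotonate and 442.5 bp in control. Narrowed pairs had a median width of 367 bp in crotonate and 677 bp in control. The threshold cut through a continuum, since the pair just inside it had a ratio of 1.5 and the pair just outside 1.499.

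Widened and narrowed pairs lay on different chromatin. A control H3K27me3 peak touched 62.1% of the widened pairs (58.3 to 65.7%) and 15.6% of the narrowed pairs (10.5 to 21.9%), against 28.8% of all pairs. A control H3K27ac peak touched 43.2% of the widened pairs and 90.8% of the narrowed pairs, against 88.4% of all pairs. A gene window was touched by 52.2% of the widened and 17.3% of the narrowed pairs, against 74.7% of all pairs.

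The width gain was greater at weak peaks and, among these, greater where control had H3K27me3. In the weakest 10% of pairs by control -log10 q, the median width ratio was 1.36 with control H3K27me3 (688 pairs) and 1.07 without it (901 pairs), and 39.5% of the pairs with and 17.0% of those without were widened. In the third decile, the median ratios were 1.12 with H3K27me3 and 1.03 without. In the strongest 10% both were 1.01. The weakest 10% also held 91 of the 173 narrowed pairs. Pairs were sorted on control values alone, so the weakest were picked for low control values. How far this raised their ratios was not tested. Over all strengths, 9.12% of the 4574 pairs with control H3K27me3 (8.30 to 9.99%) and 2.25% of the 11314 pairs without it (1.99 to 2.54%) were widened. The 2 kinds of pair also differed in strength, with a median -log10 q in control of 209 for pairs with H3K27me3 and 1104 for pairs without.

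Weak peaks lie close to the calling limit. Among pairs above the 25th percentile of -log10 q in both lists, 77 were widened and 13 narrowed, which is 1.57% of such pairs with control H3K27me3 and 0.335% of those without. In the weakest 10%, the median fold enrichment of pairs with control H3K27me3 was 8.999 in crotonate and 5.88 in control, and of pairs without it 6.20 in crotonate and 5.88 in control. At these peaks height and width were both greater, and a wider domain and a taller peak whose flanks pass the calling limit cannot be told apart.

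**Figure D2:**
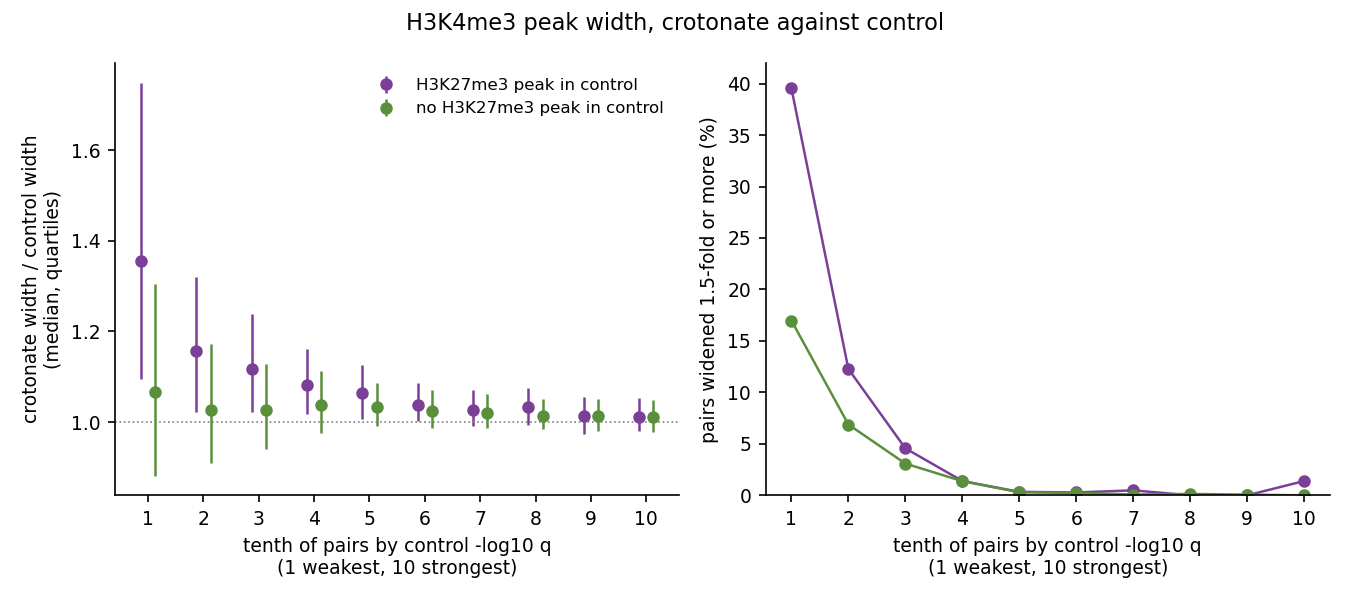
Left, median ratio of crotonate to control peak width with quartiles, and right, percent of pairs widened 1.5-fold or more, in deciles of the 15888 pairs by control -log10 q. Purple points are pairs with and green points pairs without a control H3K27me3 peak. The 2 kinds of pair stand apart at the weak end, with 39.5% and 17.0% widened in the first decile, and meet at the strong end.

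The genes with the largest width gains in bp included 4 transcription factors of development. Pou4f2, a transcription factor of retinal ganglion cells, had a peak of 3610 bp in crotonate and 1579 bp in control. Shox2, a homeobox factor of limb, heart and nervous system, had a peak of 2037 bp in crotonate and 433 bp in control, with a summit pileup of 131 in crotonate and 29 in control. Tfap2a, a transcription factor of neural crest and epidermis, had a peak of 2057 bp in crotonate and 475 bp in control, with a pileup of 88 in crotonate and 21 in control. Neurod2, a factor of excitatory neurons, had a peak of 1987 bp in crotonate and 264 bp in control, but its pileup was only 19 in crotonate and 11 in control. H3K27me3 peaks of both treatments touched all 4 of these peaks.

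The other genes of this kind had no H3K27me3 peak there. Zmynd8, a reader of histone marks, had a weak peak of 2414 bp in crotonate and 293 bp in control, with pileups of 29 in crotonate and 16 in control. Nwd1, a protein with a nucleotide-binding domain, had a peak of 2856 bp in crotonate and 1221 bp in control. Qk, an RNA-binding protein of glia and progenitors, had a peak of 12669 bp in crotonate and 11054 bp in control. The shared peak of Arhgap26, which stimulates GTP hydrolysis by small GTPases, and Spry4, an inhibitor of growth factor signalling, measured 9165 bp in crotonate and 7633 bp in control. At Qk and Spry4 the pileup was lower in crotonate, at Qk 700 in crotonate and 818 in control, and at Spry4 896 in crotonate and 1067 in control, so that width and height differed in opposite directions.

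Losses of width at genes were smaller. Rgcc, a regulator of the cell cycle, had a peak of 2093 bp in crotonate and 3370 bp in control, and an H3K27me3 peak touched it in control alone. Ackr3, a scavenger receptor for the chemokine Cxcl12, had a peak of 2184 bp in crotonate and 3073 bp in control, again with H3K27me3 in control alone. The remaining 6 were Ppp2r2b, a regulatory subunit of phosphatase 2A, Cyth1 and Ralgds, exchange factors for small GTPases, B3galt2, a galactosyltransferase, Rbm15b, an RNA-binding protein, and Omg, a myelin glycoprotein. Their widths ran between 649 and 2344 bp in crotonate and between 1574 and 3244 bp in control, and no H3K27me3 peak touched them in either treatment. H3K27ac touched all 8 peaks of this group in both treatments.

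By gene list, the widened genes were spread over many classes with few in each. Over all 12523 genes whose strongest peaks formed a pair, 323 (2.58%) widened and 21 (0.168%) narrowed. Of 22 excitatory and general neuron genes, 4 widened, among them Neurod2, Neurog2, a neurogenic factor, and Stmn2, a regulator of microtubules. Stmn2 had a peak of 2079 bp in crotonate and 815 bp in control. Of 34 Wnt and Bmp signalling genes, 4 widened, the ligands Bmp6, Wnt3 and Wnt10a and the Wnt inhibitor Dkk1. Of the 39 Hox genes, which pattern the body axis behind the forebrain, 6 had a peak in crotonate and 1 in control. Over all 20665 protein-coding genes, 13070 had a peak in crotonate and 12798 in control. A peak in crotonate alone was present at 5 Hox genes and at 1.5% of all genes. No gene widened or narrowed among 48 ribosomal protein genes, 35 DNA replication and mitosis genes or 26 neural stem and progenitor genes, and the median ratio in each of these lists was between 1.01 and 1.02.

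Most of the broadest domains kept their extent. Among the widest 836 peaks of each list (5% of the control list), 737 of the crotonate set (88.2%) overlapped the control set, and 739 of the control set (88.4%) overlapped the crotonate set. Of the control peaks in this set, 788 (94.3%) formed a pair, and of these 0 widened and 1 narrowed. Their median difference was 54 bp, close to the 48 bp of all pairs. The rest of the control set, such as the domains at Pou3f3 and Cdkn1b, took part in splits or merges, as 0 lacked a crotonate peak. Those were left out of this comparison of widths. At Sox2, which maintains neural stem cells, the domain measured 19280 bp in crotonate and 18740 bp in control. At Meis2 it was 18499 bp in crotonate and 18121 bp in control, and at Nfib 14596 bp in crotonate and 14377 bp in control. Both of these encode transcription factors of forebrain development. An H3K27me3 peak of the same treatment touched 151 (18.1%, 15.5 to 20.8%) of the widest crotonate peaks and 228 (27.3%, 24.3 to 30.4%) of the widest control peaks. Over all peaks the shares were 24.8% in crotonate and 28.7% in control.

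The direction of the edges could be read at 8459 pairs that touched starts of 1 strand. The edge that lies downstream, within the gene, moved outward more than the upstream edge. Its median outward shift in crotonate was 33 bp, against 6 bp upstream, and it lay at least 200 bp farther out in 810 pairs (9.58%, 8.96 to 10.2%), against 241 pairs (2.85%, 2.50 to 3.23%) for the upstream edge. Inward shifts of that size were seen at 161 downstream and 78 upstream edges. At pairs with control H3K27me3, 18.4% of downstream and 6.16% of upstream edges lay at least 200 bp farther out, and at pairs without it 6.42% of downstream and 1.67% of upstream edges did. The order of the 2 edges was the same among the pairs above the median of control -log10 q, with 5.89% downstream and 1.80% upstream.

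Over all 15888 pairs, whatever their orientation, both edges lay at least 200 bp farther out in 121 pairs and at least 200 bp farther in in 7. A single edge lay outward in 1876 pairs (11.8%) and inward in 481 (3.03%). Both edges moved the same way along the chromosome in 25 pairs. Neither edge moved that far in 13378 pairs (84.2%). Among pairs with an edge past 200 bp, a change at 1 edge was therefore the most frequent form. A cut that few edges pass favours such single changes, and at 100 bp both edges lay outward in 790 pairs.

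**Figure D3:**
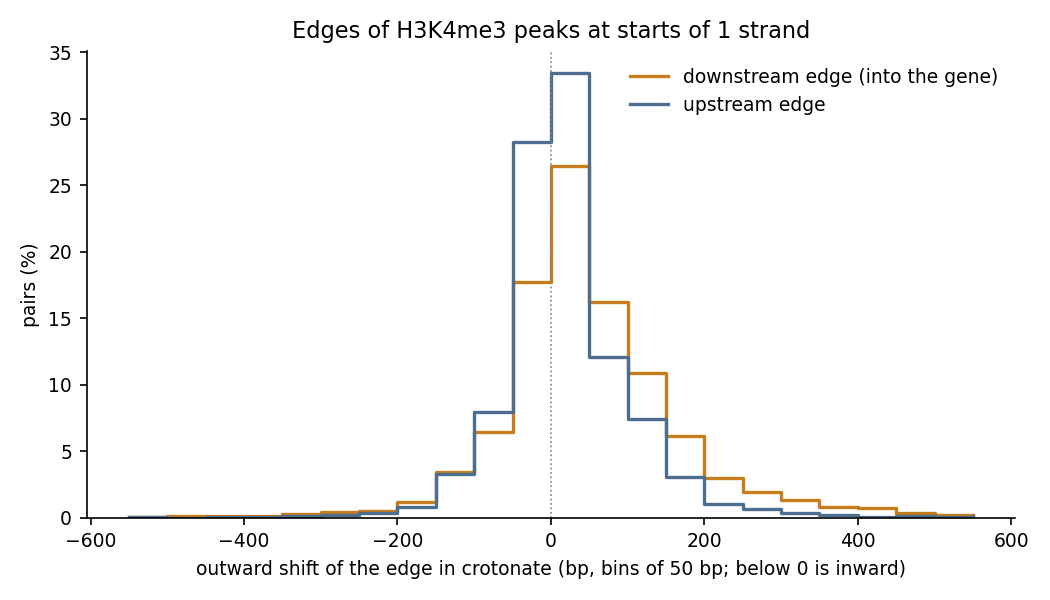
Outward shift of the downstream (orange) and upstream (blue) edge of 8459 H3K4me3 pairs in crotonate relative to control, as percent of pairs in bins of 50 bp. The downstream edge has the heavier right side, with 9.58% of pairs at 200 bp or more, against 2.85% for the upstream edge.

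The second question was which genes stood higher or lower in the H3K4me3 ranking of the crotonate library. Each of 20665 protein-coding genes took its strongest peak by -log10 q in its window, and 13070 genes had such a peak in crotonate and 12798 in control. A peak in crotonate alone was present at 309 genes (1.5% of genes) and in control alone at 37 (0.179%). The 12761 genes with a peak in both were ranked within each treatment as percentiles, so that a difference in overall signal cancels. Neighbouring genes can share a peak, and 2404 of these genes did so in control.

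Most genes held their place. Rank in crotonate was at least 10 percentile points higher in 972 genes (7.62%), here called risen, and at least 10 points lower in 945 genes (7.41%), called fallen. When percentiles were instead taken in the full list of each treatment, which is longer in crotonate and includes its added weak peaks, 994 genes rose and 267 fell. The 2 counts of the main ranking are nearly equal, as ranks over a common set of genes balance out. The SD of the change over all genes was 7.28 points. A change of 10 points is within counting error for a gene in the middle of the range. For genes between the 50th and 75th percentile of control, the 95% counting interval of the summit pileup spanned 16.9 percentile points in crotonate and 14.9 in control. Under a stricter rule, added after the data were seen, the 2 counting intervals also had to lie apart, and 401 genes (3.14%) rose and 296 (2.32%) fell. A change of 20 points or more was seen upward in 128 genes (1%) and downward in 86 (0.674%).

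The -log10 q weighs the pileup against a local background, which for some genes differed between the libraries. The implied background was at least 25% higher in crotonate at 17.99% of the fallen genes and 6.83% of all ranked genes. It was at least 20% lower in crotonate at 32.5% of the risen genes and 11.1% of all ranked genes. With the stricter rule these shares were 6.76% of the fallen and 17.0% of the risen genes. Values for single genes below are therefore given as summit pileups, with the background for some of those where it differed.

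Of the genes that rose most, 3 had the lowest background of the list in both libraries. Rnpc3, a protein of the minor spliceosome, rose by 39.1 points, with a pileup of 739 in crotonate and 563 in control. Atp5g2, a subunit of ATP synthase, rose by 35.9 points, with a pileup of 757 in crotonate and 612 in control. Gas6, a ligand of the Tyro3, Axl and Mertk receptors, rose by 34.2 points, with a pileup of 668 in crotonate and 505 in control. The typical peak had a lower pileup in crotonate, so these peaks went against the trend of the library.

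The other genes that rose most were Tmem97, a membrane protein of the endoplasmic reticulum, Zfp105, a zinc finger protein, Itga5, the fibronectin receptor subunit integrin alpha-5, Mydgf, a secreted growth factor, and Gfpt2, an enzyme of the hexosamine pathway. Their pileups ran between 677 and 787 in crotonate and between 567 and 706 in control, and they rose by 32.7 to 35.5 points. At Itga5 and Mydgf the implied background was 2.87 in crotonate and 4.82 and 5.35 in control, and ranked by pileup alone they rose by 27.2 and 22.4 points. Kdm6b, which removes H3K27 methylation, would have stood first with 82.7 points. Its windows took different peaks in the 2 treatments, since a crotonate peak ending at 69397699 on chromosome 11 reached a window that the matching control peak, ending at 69396845, did not, and so it lies outside the rule for named genes. Meig1, at the other end of the ranking, likewise took different peaks. In all, 68 genes took peaks that did not overlap each other.

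Of the genes that fell most, Abtb1, a protein with a BTB domain, fell by 30.04 points, with a pileup of 519 in crotonate and 795 in control. Atp6v0a2, a subunit of the vacuolar proton pump, fell by 27.9 points, with a pileup of 523 in crotonate and 783 in control. Bub1b, a kinase of the spindle checkpoint, fell by 32.7 points, with a pileup of 612 in crotonate and 832 in control. At Bub1b the implied background was 5.67 in crotonate and 2.91 in control, and by pileup alone it fell by 18.8 points. Kif14, a kinesin of cytokinesis, fell by 27.7 points, with a pileup of 465 in crotonate and 703 in control. Melk, a kinase expressed in dividing progenitors, fell by 27.4 points, with a pileup of 579 in crotonate and 783 in control. At Melk the implied background was 4.64 in crotonate and 2.91 in control, and by pileup alone it fell by 18.2 points. The remaining 3 were Tspan14, a tetraspanin, Cry2, a repressor of the circadian clock, and Prox1, a transcription factor of neuronal differentiation. By pileup alone Tspan14 fell by 19.6 points, Cry2 fell by 15.1 points and Prox1 fell by 7.03 points, and the counting intervals of Cry2 and Prox1 overlapped.

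Of the gene lists, the DNA replication and mitosis genes, which copy the genome and divide the cell, lost rank most often. Of 35 such genes with a peak in both treatments, 13 fell (37.1%, against 7.41% of all ranked genes) and 1 rose. With counting intervals apart, 8 fell and 0 rose, against 2.32% and 3.14% of all genes. The median change was -6.33 points, against -0.14 over all genes, and rank was lower in crotonate at 31 of the 35, against 51.3% of all genes. Ranked by summit pileup, 14 of the 35 fell and 0 rose, with a median change of -7.24 points. The peaks kept their width, with a median ratio of 1.01.

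Part of the list lay where rank changes were common. Between the 50th and 75th percentile of control, 6 of 12 list genes fell, against 14.0% of all genes there, and above the 75th percentile 5 of 11 fell, against 11.8%. Below the 50th percentile 2 of 12 fell, against 1.91%.

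The members that fell include parts of the replication machinery. Mcm3, Mcm4 and Mcm5, subunits of the replicative helicase, had pileups of 445, 601 and 560 in crotonate and 602, 765 and 697 in control. Cdc6, which loads that helicase, had a pileup of 348 in crotonate and 494 in control. Orc1, a subunit of the origin recognition complex, had a pileup of 768 in crotonate and 887 in control, and it fell by 10.0 points by -log10 q but changed by -0.26 points by pileup alone. Rrm1 and Rrm2, which make deoxyribonucleotides, had pileups of 655 and 613 in crotonate and 840 and 793 in control. Of these 7 genes, Mcm3 and Cdc6 had counting intervals apart.

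The mitotic members that fell all had counting intervals apart. Cdc20, which activates the anaphase-promoting complex, fell by 22.4 points, with a pileup of 564 in crotonate and 765 in control. Cdc25c, a phosphatase that triggers entry into mitosis, fell by 18.5 points, with a pileup of 443 in crotonate and 640 in control. Bub1, another checkpoint kinase, fell by 15.8 points, with a pileup of 532 in crotonate and 714 in control. Mki67, the antigen Ki-67 of dividing cells, fell by 14.2 points, with a pileup of 612 in crotonate and 836 in control. Ccna2, which encodes cyclin A2, fell by 13.3 points, with a pileup of 608 in crotonate and 843 in control. Apart from Bub1b, Cdc20 and Cdc25c, which the rule names, the members of the list were named after their values had been seen.

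The other members mostly stood lower by less than 10 points, such as Aurkb, a mitotic kinase, with -8.33 points and Mcm6 with -7.79 points. Higher in crotonate were 4 of the 35, among them Pcna, Mcm2 and Tyms. Pcna, the sliding clamp, had a pileup of 565 in crotonate and 629 in control and a change of 1.49 points. Mcm2 had a pileup of 493 in crotonate and 495 in control and a change of 2.57 points. Tyms, which makes thymidylate, rose by 10.1 points, with a pileup of 624 in crotonate and 644 in control, and its counting intervals overlapped.

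**Figure D4:**
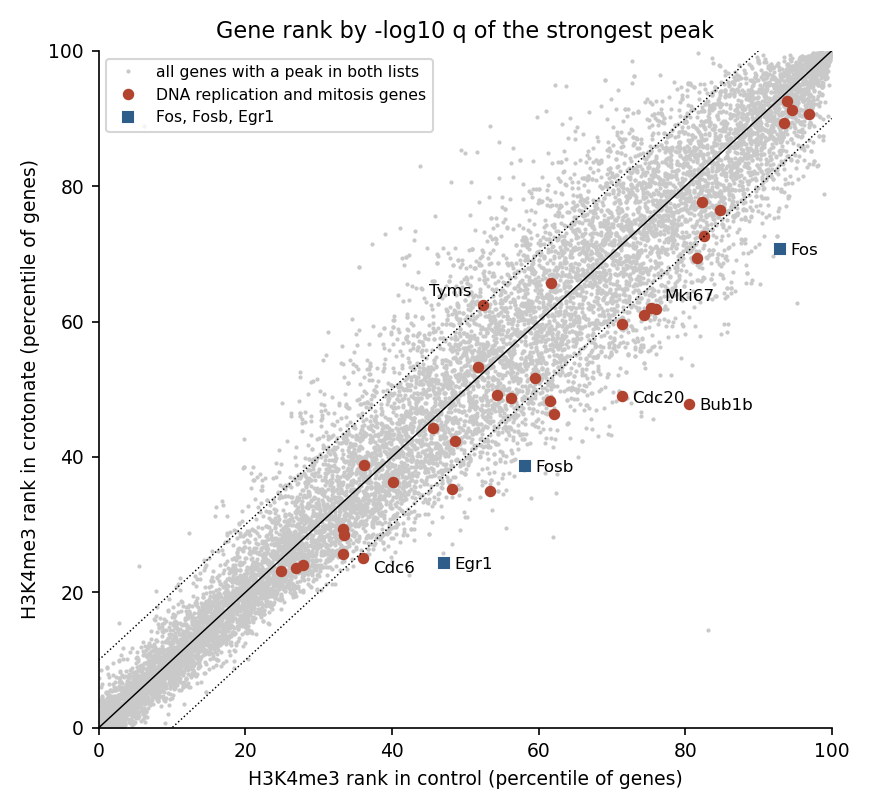
H3K4me3 rank of 12761 genes in crotonate (vertical) against control (horizontal), as percentiles by -log10 q of the strongest peak, with DNA replication and mitosis genes in red and Fos, Fosb and Egr1 as blue squares. The solid line marks equal rank and the dotted lines 10 points either side. Of the 35 red points, 13 lie below the lower dotted line and 1 above the upper.

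Promoter letters of these genes were searched in the 300 bases around the start, 250 before and 50 after, where RefSeq gave the sequence. Of the 28 list genes with a sequence, 22 held CCAAT on either strand (78.6%, 59.0 to 91.7%), against 38.4% of the 10246 ranked genes with a sequence and 38.1% of all 20085 promoters. TTTGAA was held by 32.1% of the list, 10.6% of the ranked genes and 15.4% of all promoters. TTTGGCGC, a form of the E2F motif, was held by 17.9% of the list, 0.976% of the ranked genes and 0.637% of all promoters. Such letters are well known in cell cycle promoters. CCAAT was held by 9 of 10 fallen genes of the list and by 43.3% of all 774 fallen genes with a sequence. CCGGAAG, an ETS motif, was held by 25.97% of the fallen, 20.1% of the risen and 3.797% of the widened genes, against 18.3% of the ranked genes and 11.9% of all promoters. The median number of CG pairs was 25 in fallen, 21 in risen and 15 in widened genes, against 22 in all ranked genes. The other motifs searched were TTTCCCGC, CACGTG, TGACGTCA and TGACTCA, held by 1.41%, 7.89%, 2.30% and 4.70% of all promoters. Each motif was counted on both strands whether or not its letters overlapped those of another.

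Among 29 stress response genes, 3 fell, and all 3 are immediate-early transcription factors, which are induced within minutes of a stimulus. Fos fell by 22.2 points, with a pileup of 664 in crotonate and 954 in control. Fosb fell by 19.4 points, with a pileup of 471 in crotonate and 672 in control. Egr1 fell by 22.7 points, with a pileup of 388 in crotonate and 592 in control, and its implied background was 5.15 in crotonate and 2.91 in control. All 3 had counting intervals apart. Txnrd1, which reduces thioredoxin, rose by 16.9 points, with a pileup of 774 in crotonate and 760 in control. The 10.3% of this list that fell stands against 7.41% of all genes.

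Among 31 neural stem and progenitor genes, 4 rose (12.9%, against 7.62% of all ranked genes) and 2 fell (6.45%, against 7.41%). Fabp7, a fatty acid binding protein of radial glia, rose by 26.6 points, with a pileup of 727 in crotonate and 743 in control and an implied background of 2.87 in crotonate and 5.89 in control. By pileup alone Fabp7 rose by 13.1 points, and its counting intervals overlapped. Id1, an inhibitor of differentiation factors, rose by 17.5 points, with a pileup of 533 in crotonate and 489 in control and an implied background of 2.87 in crotonate and 5.35 in control. Sox1, a transcription factor of neural progenitors, rose by 12.1 points. Here 1 crotonate peak of 7855 bp covered 2 control peaks of 5003 and 2284 bp with 444 bp between them. The pileup at Sox1 was 533 in crotonate and 491 in the stronger control peak. Hes1, an effector of Notch, rose by 11.7 points. Id3, a relative of Id1, fell by 10.6 points, with counting intervals that overlapped.

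Of 41 genes of Notch, Egf, Fgf and Shh signalling, 6 rose (14.6%, against 7.62% of all ranked genes) and 1 fell. Of the 6, the 4 with counting intervals apart were Dusp4, a MAP kinase phosphatase, Smo and Shh, the transducer and the ligand of the hedgehog pathway, and Gli2, its transcription factor. Dusp4 rose by 21.5 points, with a pileup of 655 in crotonate and 613 in control. Smo rose by 17.1 points, with a pileup of 615 in crotonate and 586 in control. Shh rose by 12.8 points, with a pileup of 219 in crotonate and 29 in control, but here 1 crotonate peak covered 2 control peaks with 488 bp between them. The control value is that of the weaker piece, with a -log10 q of 17.6, since the stronger, with 195.4, lay outside the gene window. The others were Etv5, an ETS factor downstream of Fgf, and Hes1. Spry1, an inhibitor of Fgf signalling, fell by 11.5 points. When peaks within 500 or 1000 bp were joined, or with a gene window of 2 kb, 4 genes of the list rose, against 7.64%, 7.65% and 7.55% of all genes under these settings.

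The enzymes that write and erase H3K4 methylation had peaks at 19 of 21 genes in both treatments. Kmt2b, a methyltransferase of the MLL family, fell by 15.7 points, with a pileup of 709 in crotonate and 975 in control and counting intervals apart. Kdm1b, a demethylase, fell by 12.98 points, with a pileup of 690 in crotonate and 899 in control. The other 17 changed by -8.22 (Kdm2a) to 7.51 points (Wdr5, a shared subunit of the methyltransferases), and 0 rose. Among 27 Polycomb genes, 4 fell (14.8%, against 7.41% of all ranked genes) and 2 rose (7.41%, against 7.62%), and Kdm6b is 1 of the 2 that rose, through the different peaks named above. Phc3, a subunit of Polycomb repressive complex 1, fell by 18.4 points, with a pileup of 610 in crotonate and 826 in control, and was the 1 of the 4 that fell with counting intervals apart.

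Among 43 genes of acyl-CoA metabolism and crotonylation, 4 rose (9.30%) and 6 fell (13.95%), against 7.62% and 7.41% of all ranked genes. Of the 6 that fell, 0 had counting intervals apart. Of the 4 that rose, Cpt1a, which carries fatty acids into mitochondria, and Acss3, an acyl-CoA synthetase, did. Cpt1a had a pileup of 498 in crotonate and 434 in control, and Acss3 had 293 in crotonate and 110 in control. Crebbp, an acetyl- and crotonyltransferase, fell by 12.4 points, and Slc16a1, a transporter of short-chain acids, fell by 14.6 points, while by pileup alone it fell by 4.42 points. Among 48 ribosomal protein genes, which make up a steadily expressed set, 1 rose and 3 fell, and their median percentile was 87.7 in crotonate and 87.1 in control.

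**Figure D5:**
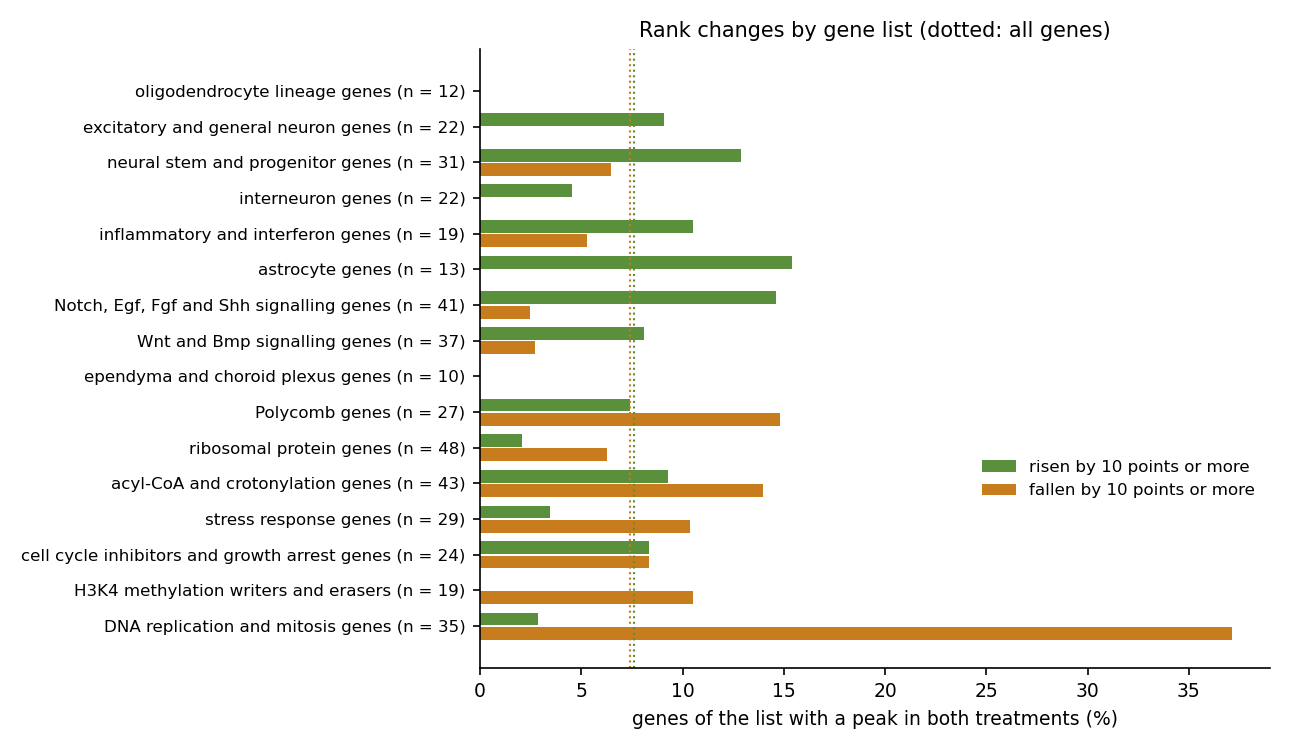
Percent of each list's genes that rose (green) or fell (orange) by 10 percentile points or more, for lists with at least 10 genes that have a peak in both treatments. The dotted lines mark 7.62% risen and 7.41% fallen over all genes. The orange bar of the DNA replication and mitosis genes, at 37.1%, is the longest.

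Few genes passed both a rank and a width threshold. Of the 972 risen genes 5 were also widened, against 2.58% of all genes whose strongest peaks formed a pair. Of the 945 fallen genes 2 were also narrowed, against 0.168% of all such genes. The rules themselves limit this overlap. Widened pairs were weak, with a median control -log10 q of 14.6, and in the lowest 10% of control ranks 0.313% of genes rose and 0 fell. The median width ratio was 1.04 in risen and 1.00 in fallen genes whose peaks formed a pair, against 1.03 in all. H3K27me3 was less frequent at the risen and the fallen genes than over all ranked genes. An H3K27me3 peak of control touched the windows of 20.0% of the risen and 10.9% of the fallen genes, against 27.5% of all ranked genes. Pairs with control H3K27me3 were weaker, as given above, and genes of low rank seldom passed the rank threshold. Between the 10th and 25th percentile of control, 2.82% of genes rose and 0.0522% fell. How far the rank rule lowered the H3K27me3 shares was not tested.

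The other marks were ranked in the same way at the same genes. H3K9cr rank changed by a median of 4.26 points at the risen genes and -2.65 points at the fallen genes, against 0.02 over all. At the risen genes 29.4% (26.5 to 32.3%) also rose by 10 points or more in H3K9cr, against 11.02% of all genes, and at the fallen genes 20.8% (18.3 to 23.6%) also fell, against 10.4%. H3K27ac rank changed by 1.82 points at the risen and -1.04 points at the fallen genes, against -0.07 over all. With counting intervals apart, it changed by 1.61 points at the risen and 0.05 points at the fallen genes. At the 117 risen genes with H3K27me3 in both treatments, H3K27me3 rank changed by -5.58 points, against -1.42 points over all 2750 such genes. The marks were measured in separate immunoprecipitations, but all of a treatment came from cells treated alike, and whether the marks of a treatment share chromatin from 1 culture is not given in the sources used here.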

How the data were processed

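Peak lists of H3K4me3 from 1 crotonate and 1 control library were compared, grouped by the labels; lists of H3K9cr, H3K27ac and H3K27me3 served for overlap. The submitters' processing notes name Bowtie2 2.4.1, MACS2 2.2.7.1 and the build GRCm38. How MACS2 was set and whether inputs were used is not stated in the labels. Each deposited list gives, per the file headers, a pileup (coverage signal at the summit), a fold enrichment (ratio to local background), and the -log10 p-value and -log10 q-value of a peak. These are the authors' values and were used to describe, rank or match peaks. Positions count from 1. Depth is unknown, and 95% intervals (exact binomial for shares, exact Poisson for pileups) cover counting error only. Reads had no molecular identifiers, so duplicates of 1 molecule may be counted.

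Peaks on chromosomes 1 to 19 were paired at an overlap of 1 bp. Genes came from RefSeq GRCm38.p6: 16457 had an annotated start and 4208 were given windows at both annotated ends. Percentiles used genes with a peak in both lists. Python 3.11.15, pandas 2.3.3 and scipy 1.17.1 were used, and scripts were tested on simulated peaks. Members, lists and thresholds were chosen with earlier results of these data known. Named genes were the 8 largest gains and losses of width and of rank, the 5 strongest split and merged peaks, the 5 widest peaks and up to 3 genes per list; others are marked. Tests were not made, as there was 1 library per treatment. Alternatives varied the q limit, list length, overlap, joining distance, thresholds, windows, rank measure and chromosomes. Some named genes are not reported here.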

Additional observations from a re-analysis of the deposited data

How the results depend on the processing

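No paired analysis was possible because each treatment had 1 library, and depth is unknown, so low peaks limit every count. The alternatives not given here moved the counts of peaks, pairs, all genes and fallen replication and mitosis genes by 1.5 times or less, the 1 gene of that list that rose became 0 to 3, and the median width difference stayed between 47 and 49 bp. The following values moved by more, and the cause was not tested. At -log10 q of at least 20 in both lists there were 48 splits, 60 merges, 780 crotonate and 310 control peaks without a partner, 286 pairs widened and 54 narrowed, 73 pairs with both edges outward, and 4.40% of pairs with and 1.12% of pairs without H3K27me3 widened. With equal numbers of peaks 777 crotonate peaks had no partner. With an overlap of 50% of both peaks 990 control peaks had none, 69 pairs had both edges outward, and 6.69% of pairs with and 1.73% of pairs without H3K27me3 widened. Joining peaks within 500 bp left 84 merges and 13 splits, and within 1000 bp 62 merges and 10 splits. A width threshold of 25% in place of 50% gave 1656 widened and 479 narrowed (22.0% of pairs with and 5.76% without H3K27me3 widened), and of 2-fold 210 and 49 (3.10% and 0.601%). Above the 25th percentile in both lists 77 widened and 13 narrowed (1.57% and 0.335%). An edge threshold of 100 bp gave 790 pairs outward and 104 inward, and of 500 bp 5 and 0. Ranked by fold enrichment 1639 genes rose and 1633 fell. Counts in other gene lists also moved by more, for example with 9 ribosomal protein genes risen and 8 fallen and 7 Polycomb genes risen by fold enrichment, 4 H3K4 enzymes fallen with chromosomes X and Y, and 3 acyl-CoA genes fallen by summit pileup. A rank threshold of 5 points gave 2515 risen and 2546 fallen, with 20 replication and mitosis genes fallen, and of 20 points 128, 86 and 2. In the full lists 994 rose and 267 fell, with 4 of that list. With counting intervals apart, an alternative added after the data were seen, 401 rose and 296 fell, with 8 of that list. With an implied background in crotonate no more than 25% above or 20% below that in control, added likewise, 637 rose and 760 fell. In each alternative that kept a threshold of 10 points on a common set of genes, at least 8 of the list fell.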
